A study of Drosophila melanogaster with 3 samples.

Results

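Of the reproducible PHDP-GFP peaks in Drosophila melanogaster embryos, 893 lay at divergent protein-coding promoters, 12.6% of all (exact binomial 95% confidence interval 11.8% to 13.4%). A peak counted when its summit, the position of highest signal, was within 500 bp of at least 1 protein-coding transcription start on the plus strand and at least 1 on the minus strand. The rest of the list was made up of 2074 single-strand promoter peaks, with starts on 1 strand only within 500 bp, and 4125 peaks with no protein-coding start within 500 bp. Within the list of reproducible peaks, position alone chose the 893 members, and no signal value entered that choice. The list itself holds no peak with a signal below 171.7. Intervals given here cover counting error over peaks or genes only.

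The peaks came from chromatin immunoprecipitation and sequencing of whole embryos aged 10 to 24 hours, in 3 biological replicates of 1 group. The embryos were of the transgenic strain labelled PHDP, in which PHDP carries GFP at its C terminus, and the antibody recognised GFP. Whole embryos mix all cell types, and no group without the tag was analysed here, so PHDP binding and signal that the antibody gives on its own cannot be told apart. Members were taken from the list filtered by irreproducible discovery rate (IDR), a measure of agreement between replicates, and the 3 replicate lists gave the errors.

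PHDP has a homeodomain of the paired-like type. Homeodomains bind AT-rich DNA built around TAAT, and paired-like homeodomains can bind as dimers to palindromes of that core. At a divergent promoter, 2 genes are transcribed away from each other from neighbouring starts, so that the stretch between the starts lies upstream of both. In flies such pairs often belong to broadly expressed genes, and their promoters are known for elements such as the DNA replication-related element (DRE), bound by Dref, and Motif 1, bound by M1BP.

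The sequences of 7 members, all on dm6 and written along the plus strand, show what lay between the starts. Each runs between the nearest minus-strand start and the nearest plus-strand start, or within that stretch for 100 bp either side of the summit where it exceeds 300 bp. Capitals mark 7 words searched on both strands: TAATTA, the palindromes TAATNNATTA (P2) and TAATNNNATTA (P3), DRE (TATCGATA), Motif 1 (GGTCACAC), a forkhead word (TGTTTAC) and a GATA word (AGATAA). The first 3 are the strongest members, and the others are the strongest with DRE, Motif 1 and P3, with the second strongest for P3.
CG11309/CG7632, chr3L:21304659-21304696: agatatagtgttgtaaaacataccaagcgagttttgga
CG5611/Mtl, chr3R:27636065-27636265: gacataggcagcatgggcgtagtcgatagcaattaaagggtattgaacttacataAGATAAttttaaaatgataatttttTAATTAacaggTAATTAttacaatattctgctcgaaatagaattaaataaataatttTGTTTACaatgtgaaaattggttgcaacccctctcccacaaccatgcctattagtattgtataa
Art3/mRpS10, chr3R:15229409-15229664: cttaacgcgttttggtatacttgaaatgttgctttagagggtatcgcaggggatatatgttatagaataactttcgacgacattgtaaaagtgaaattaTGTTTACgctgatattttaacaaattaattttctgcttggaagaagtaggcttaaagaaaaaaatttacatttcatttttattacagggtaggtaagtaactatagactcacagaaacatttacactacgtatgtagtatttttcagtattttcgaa
fws/Lamtor3, chr2L:17481030-17481230: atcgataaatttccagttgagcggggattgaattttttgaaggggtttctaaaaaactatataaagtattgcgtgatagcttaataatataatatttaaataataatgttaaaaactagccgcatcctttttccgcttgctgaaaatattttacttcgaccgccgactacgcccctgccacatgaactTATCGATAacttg
Ripalpha/RpL7, chr2L:10200975-10201003: cccactccgcggccaGTGTGACCgtttgg
eIF4EHP/CG18428, chr3R:24109088-24109288: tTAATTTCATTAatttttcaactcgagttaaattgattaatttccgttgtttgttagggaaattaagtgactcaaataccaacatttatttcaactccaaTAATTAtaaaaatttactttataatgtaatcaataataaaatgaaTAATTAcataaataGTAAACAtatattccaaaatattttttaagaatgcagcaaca
brm/Arl1, chr3L:15982870-15983134: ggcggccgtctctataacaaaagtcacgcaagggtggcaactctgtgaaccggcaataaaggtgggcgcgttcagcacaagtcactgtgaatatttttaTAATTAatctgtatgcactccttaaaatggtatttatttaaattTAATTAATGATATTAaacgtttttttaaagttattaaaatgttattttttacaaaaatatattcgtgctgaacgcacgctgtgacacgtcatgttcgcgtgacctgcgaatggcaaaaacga
Homeodomain palindromes were marked in 3 of these stretches. Of these, eIF4EHP/CG18428 and brm/Arl1 were printed because they held P3 within 100 bp of the summit, so P3 there follows from the choice. In CG5611/Mtl the centres of both copies of TAATTA were 17.5 and 6.5 bp from the summit. In eIF4EHP/CG18428 a TAATTA was centred 2.5 bp from the summit and P3 94 bp from it. In brm/Arl1 P3 was centred 18 bp from it, and the last bases of a TAATTA overlapped the first bases of P3. In fws/Lamtor3 DRE stood at the edge, with its centre 9.5 bp upstream of the Lamtor3 start and 78.5 bp from the summit. Motif 1 in Ripalpha/RpL7 was read on the opposite strand, 10.5 bp upstream of RpL7, in a stretch of 29 bp that did not hold the summit. The stretch of Art3/mRpS10 held a forkhead word but none of the homeodomain palindromes, and that of CG11309/CG7632 held none of the 7 words.

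The label held for nearly all members. Taking the nearest start on each strand, 875 of 893 were head-to-head, with the minus-strand start to the left of the plus-strand start, and in 18 the pair of starts was crossed, so that the transcripts overlapped. Among the strongest 5000 peaks of each replicate, 97.7% ± 0.0510 (SD, n = 3) of divergent promoter peaks were head-to-head. With any starts within 500 bp counted in place of the nearest, 886 of 893 members had a head-to-head pair. The strongest members with overlapping starts were CG31808/Cyt-c-d, with an IDR signal of 1876, and CG5846/CG4658, with 1505, both after CG4741/Adck1 with 2024. Cyt-c-d encodes a cytochrome c.

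The members touched 1743 genes with a start within 500 bp of a summit, and 853 members had exactly 2 such genes. They fell on 850 distinct pairs of nearest genes, of which 43 carried 2 members each and none more. Peaks of 1 pair share their promoter and are not independent: 22 members shared a called interval with another member, as 2 summits of 1 region. At Brf/sds22, for example, the interval 3R:17391307-17391885 held summits with IDR signals of 1267 and 586. Brf encodes a subunit of the RNA polymerase III factor TFIIIB. Of the 893 members, 439 had a CG-numbered gene, one without a given name, on at least 1 side, and 89 had one on both sides.

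The strongest member was the peak of CG11309/CG7632 at 3L:21304317-21304801, ranked 8 in the IDR list. Its signal, in the authors' units, was 1414 in replicate 1, 2343 in replicate 2 and 1366 in replicate 3 (mean 1708 ± 551, SD, n = 3). Replicate 2 stood above the others, and the starts were only 39 bp apart, with the summit outside them, 86 bp inside the CG11309 transcript. The peak of CG5611/Mtl at 3R:27635949-27636577 had signals of 1623, 2013 and 1225 in replicates 1, 2 and 3 (1620 ± 394). Mtl encodes a small GTPase of the Rac family. The peak of Art3/mRpS10 at 3R:15229324-15229747 had signals of 1687, 1886 and 1331 (1635 ± 281). Art3 encodes a protein arginine methyltransferase and mRpS10 a protein of the small mitochondrial ribosomal subunit. No order of these 3 held in all replicates. Signals are on a scale of their own in each list, and replicate 3 gave the lowest value in all 12 of the strongest members.

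The next members joined genes of different roles. The peak of mRpS23/CenG1A at 2L:13835255-13835691 had replicate signals of 1333, 1757 and 1116 (1402 ± 326). CenG1A encodes a GTPase-activating protein for Arf. At Chro/Ssl1, 3L:22878693-22879123, the signals were 1367, 1604 and 1093 (1355 ± 256). Chro encodes Chromator, a chromodomain protein of polytene interbands and the spindle, and Ssl1 a subunit of the transcription factor TFIIH. At Tcs5/CHMP2B, 3L:5139307-5139699, they were 1365, 1607 and 981 (1317 ± 316), and CHMP2B belongs to the ESCRT-III complex. The peak of eIF4EHP/CG18428, 3R:24108911-24109419, had 1311, 1411 and 1041 (1254 ± 192). eIF4EHP is a cap-binding protein that represses translation. Fbw5/CG9147, CG13390/CG17294, Pex11ab/CG8320, Pdrg1/Pal1 and CG13933/PolD2 made up the 12 strongest, with IDR signals from 3723 down to 2804. The weakest members, mTerf3/CG5104, CG8046/Rad51D and KFase/epsilonCOP, had an IDR signal of 172 each, and each was without a matched summit in 1 replicate.

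**Figure D1:**
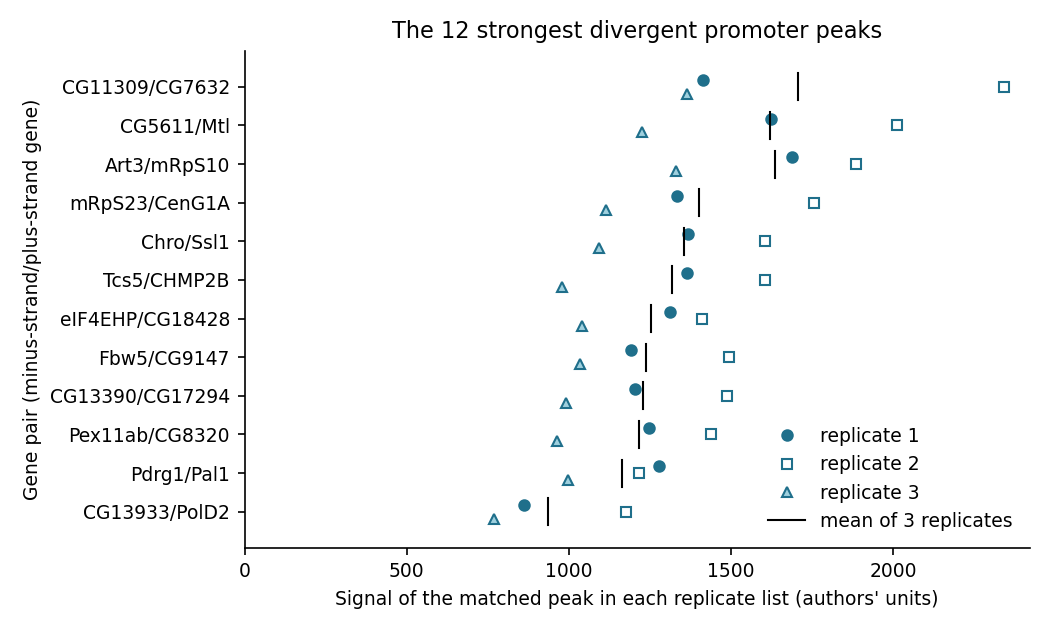
Signal of the matched peak in each replicate (x axis, authors' units) for the 12 strongest members (y axis), with 1 symbol per replicate and a line at the mean of 3. The triangles of replicate 3 lie lowest in every row, and CG11309/CG7632 has the widest spread, from 1366 to 2343.

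Members were more frequent among strong peaks than among weak ones. They made up 19.6% of IDR ranks 1 to 500, 17.6% of ranks 501 to 1000, 15.3% of ranks 1001 to 2500, 10.8% of ranks 2501 to 5000 and 9.94% of the ranks from 5001 to the end of the list. In the replicate lists the share was 20.3% ± 0.231 (SD, n = 3) in ranks 1 to 500 and 9.74% ± 1.03 from rank 5001 to the same depth. Below the depth of the IDR list it fell to 5.83% ± 0.213 down to rank 15000 and 2.37% ± 0.218 in ranks 15001 to 29995. The replicate values of the first and last bins did not overlap. Members held 3 of the 10 strongest IDR peaks and 23 of the 100 strongest.

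In each replicate the members' median signal exceeded that of single-strand promoter peaks. The median log2 signal of members was 7.07, 7.08 and 6.70 in replicates 1, 2 and 3, against 6.76, 6.85 and 6.49 for single-strand promoter peaks. The difference was 0.31, 0.23 and 0.21, a mean of 0.25 ± 0.0558 (SD, n = 3), higher in 3 of 3 replicates (two-sided exact sign-flip permutation p = 0.25, the smallest that 3 replicates allow). Against peaks with no start within 500 bp it was 0.30 ± 0.0517. In the IDR list the members' signals ran from 172 to 5115 with a median of 361, against a median of 296 for single-strand promoter peaks, whose highest value was 6855. The quartiles were 237 and 632 for members and 216 and 537 for single-strand promoter peaks. In all, 61.4% of members (548 of 893, exact interval 58.1% to 64.6%) were at or above the IDR median signal of 301, against 48.9% of single-strand promoter peaks (1015 of 2074, 46.8% to 51.1%). Among IDR peaks at or above that median, a subset taken on the signal itself, the difference turned to -0.04 ± 0.0166, and with starts within 200 bp in place of 500 bp it was 0.43.

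**Figure D2:**
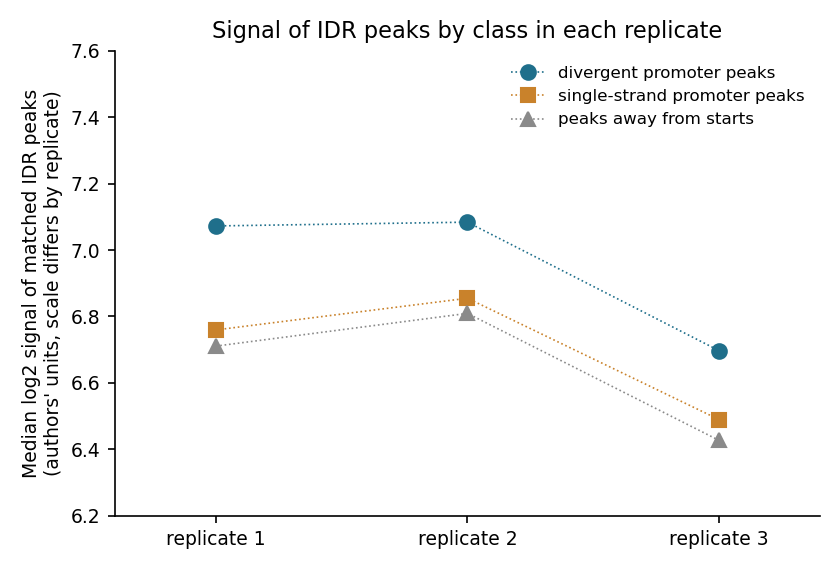
Median log2 signal (y axis, authors' units) of IDR peaks matched in each replicate (x axis), for divergent promoter peaks, single-strand promoter peaks and peaks with no start within 500 bp. The axis does not start at 0. Members are highest in all 3 replicates, by 0.21 to 0.31 over single-strand promoter peaks.

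Summits sat between the starts. Of the 875 head-to-head members, 706 (80.7%, exact interval 77.9% to 83.3%) had their summit between both nearest starts, although on average only 45.7% of the length in which a summit would count lay there. The replicates gave 83.5%, 82.1% and 80.7% (82.1% ± 1.39, SD, n = 3). The median summit was 57 bp from the midpoint of the starts, and 625 of 875 (71.4%) were within 100 bp. Of all members, 470 members were nearer to the plus-strand start and 422 to the minus-strand start. Measured from the nearer start, the median summit lay 90 bp upstream (quartiles 22 and 130 bp), against 125 bp upstream (15 and 244 bp) for single-strand promoter peaks, and 80.5% and 77.5% of summits, respectively, were upstream.

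**Figure D3:**
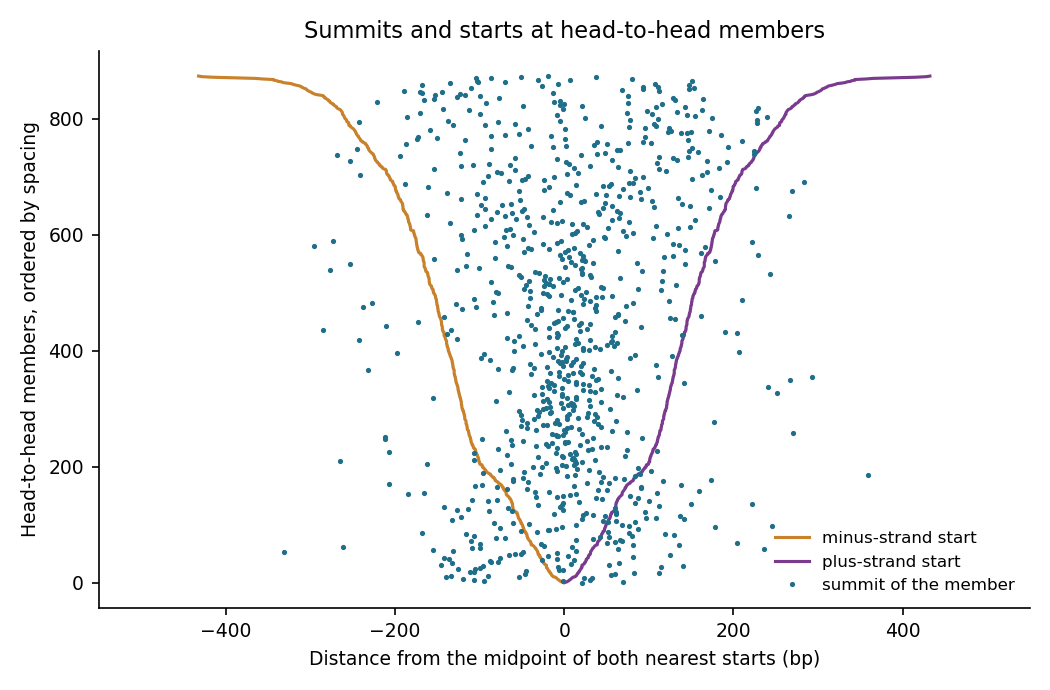
Each of the 875 head-to-head members is 1 row (y axis, ordered by spacing), with its summit as a point and both nearest starts as lines, by distance from the midpoint of the starts (x axis, bp). Points gather around 0 between the lines, most densely at middle spacings, and fall outside the lines mainly where the starts are close together.

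Spacing between the starts ranged from 1 to 864 bp, with a median of 288 bp and quartiles of 205 and 383.5 bp. The median was 296, 280 and 278 bp in replicates 1, 2 and 3 (285 ± 9.87, SD, n = 3). The shortest spacing, 1 bp, was that of Atg6/Pisd, which pairs a Beclin family autophagy gene with a phosphatidylserine decarboxylase gene. Its replicate signals were 63.7 and 113 in replicates 1 and 2, with no matched summit in replicate 3. CG7246/HP1b, at 6 bp, and SerRS/CG17260, at 8 bp, followed. SerRS, a seryl-tRNA synthetase gene, had the strongest of these 3 peaks, with signals of 296, 322 and 219 (279 ± 53.4). The longest spacings were those of mRNA-cap/CG32599 (864 bp), CG16956/CG42784 (856 bp) and CG17364/CtsK1 (831 bp). mRNA-cap encodes the mRNA capping enzyme, and its peak had signals of 80.3, 113 and 47.0 (80.1 ± 33.1).

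Pairs at middle spacings carried peaks most often. The annotation holds 2667 head-to-head pairs with starts up to 1000 bp apart (median 301 bp), and 905 of them (33.9%) had an IDR summit within 250 bp of their midpoint. The share was 29.1% of 429 pairs at 1 to 100 bp, 33.3% of 357 at 101 to 200 bp, 49.1% of 542 at 201 to 300 bp, 48.0% of 400 at 301 to 400 bp, 30.3% of 267 at 401 to 500 bp and 18.2% of 672 at 501 to 1000 bp. In the replicates it was 42.6% ± 1.57 (SD, n = 3) at 201 to 300 bp and 40.6% ± 2.77 at 301 to 400 bp, above 21.4% ± 2.07 at 1 to 100 bp and 24.1% ± 1.32 at 401 to 500 bp with no overlap of the replicate values. The values at 201 to 300 bp and at 301 to 400 bp did overlap. The searched window was 250 bp either side at every spacing. At 501 to 1000 bp both starts lay outside it, so the share in that bin is not directly comparable with the others.

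Members at those spacings were also stronger. The 476 members spaced by 201 to 400 bp had a median IDR signal of 402 against 334 in the other 417, a difference in replicate median log2 signal of 0.26 ± 0.0306 (SD, n = 3; higher in 3 of 3, exact sign-flip p = 0.25). By bin, the median IDR signal was 420 at 201 to 300 bp and 370 at 301 to 400 bp, beside 360 for all head-to-head members. At 301 to 400 bp the median log2 signal was 7.15, 7.02 and 6.71 in replicates 1, 2 and 3. For all head-to-head members it was 7.07, 7.08 and 6.69, so replicate 2 went the other way. Summits lay between the starts in 90.4% of members at 201 to 300 bp and 93.7% at 301 to 400 bp. There 34.3% and 53.7% of the countable length lay between. At 1 to 100 bp only 24.5% did, with 6.63% of the length between the starts. Members with the summit between the starts had slightly higher signals than the rest, by 0.13 ± 0.0476 on the log2 scale.

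**Figure D4:**
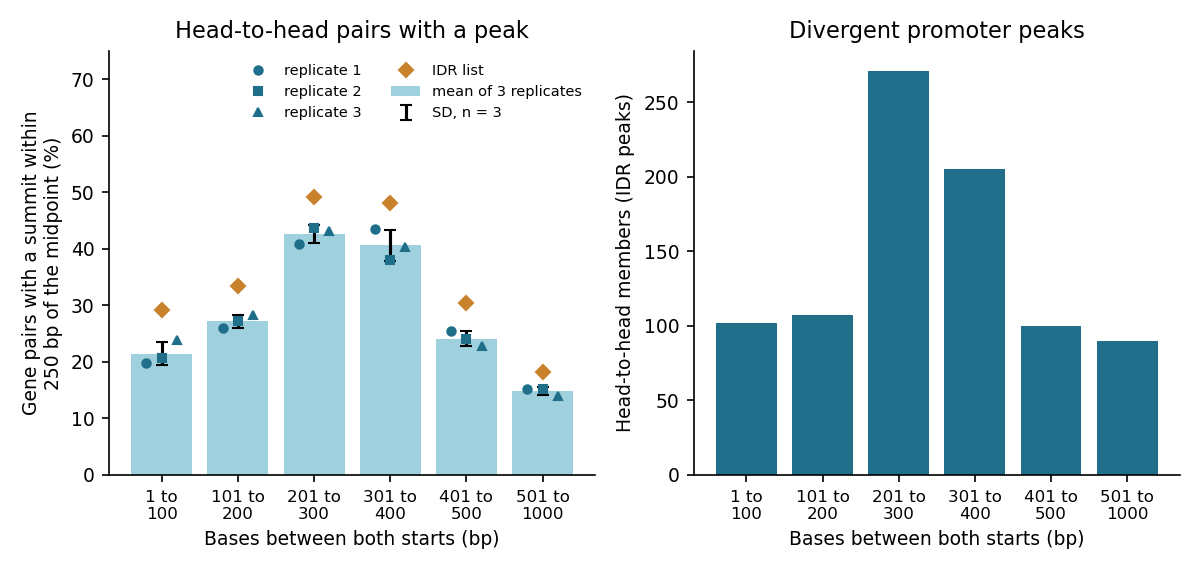
Left, share of the genome's head-to-head pairs with a summit within 250 bp of the midpoint (y axis, %) by spacing (x axis, bp): bars and error bars are the mean and SD of 3 replicates (strongest 5000 peaks), small symbols the replicates and diamonds the IDR list. Right, head-to-head members by spacing. Both peak at 201 to 400 bp, with 271 members at 201 to 300 bp and 205 at 301 to 400 bp.

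Genes in head-to-head pairs had a peak at a start more often than other genes. Of all 13945 protein-coding genes, 3497 (25.1%) had an IDR summit within 500 bp of a start. Among the 5052 genes with a head-to-head partner within 1000 bp, 2037 (40.3%, exact interval 39.0% to 41.7%) did, against 1460 of the other 8893 (16.4%, 15.7% to 17.2%). The 5000 strongest peaks of replicates 1, 2 and 3 gave 32.6%, 32.7% and 33.0% for partnered genes and 11.3%, 12.02% and 12.05% for the others. The difference was 21.0 ± 0.307 percentage points (SD, n = 3; higher in 3 of 3 replicates, two-sided exact sign-flip p = 0.25). With 2500 peaks per replicate it was 13.2 points. A partnered gene can be counted through its partner's peak, since 1 summit between close starts serves both genes. Partnered genes had 1.47 annotated starts on average and the others 1.37.

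Ribosomal protein genes, cytosolic and mitochondrial, were at members more often than protein-coding genes as a whole. Members lay within 500 bp of a start of 28 of 86 ribosomal protein genes and 31 of 73 mitochondrial ribosomal protein genes, against 1743 of all 13945 (12.5%). Pairing differs between lists, and the share among partnered genes was 28 of 53 (52.8%) for ribosomal and 31 of 58 (53.4%) for mitochondrial ribosomal proteins, against 34.4% of all partnered genes. Of the genes without a partner, 27 of 33 ribosomal protein genes and 2 of 15 mitochondrial ribosomal protein genes had an IDR peak at a start, beside 16.4% of all genes without a partner, so that the mitochondrial count was near that of genes in general. Counting a peak of any class, 76 of 86 ribosomal and 34 of 73 mitochondrial ribosomal protein genes had one.

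Among ribosomal protein genes, RpS27 shared the peak of RpS27/Nup37 at 3R:25247261-25247785 with signals of 542, 466 and 431 (480 ± 56.7, SD, n = 3). RpL7 had signals of 500, 512 and 397 (470 ± 63.6) and RpL34b, at RpL34b/CG8132, 436, 467 and 406 (436 ± 30.8). No order of the 3 held in all replicates. Besides mRpS10 and mRpS23, the third mitochondrial ribosomal protein gene by signal was mRpL23, at mRpL23/CG9004, with 913, 1108 and 718 (913 ± 195). Its starts were 50 bp apart.

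Members also lay at genes of energy metabolism, protein turnover and tRNA charging. They covered 21 of 44 partnered oxidative phosphorylation genes (47.7%), 10 of 26 proteasome genes (38.5%) and 10 of 23 tRNA synthetase genes (43.5%), beside 34.4% of all partnered genes, to which the proteasome share was close. ND-ASHI, a complex I subunit gene paired with the fumarase gene Fum1, had signals of 425, 491 and 312 (409 ± 90.5), and ND-42, at Cchl/ND-42, had 276, 183 and 209 (223 ± 47.8). Rpn3, a subunit gene of the proteasome's regulatory particle, had 218, 260 and 176 (218 ± 41.7). Rpn5, at Hat1/Rpn5, had 198, 107 and 92.1 (132 ± 57.4), with replicate 1 above the others. For the threonyl-tRNA synthetase gene ThrRS, at Patsas/ThrRS, the values were 244, 299 and 205 (250 ± 47.4), close to GluProRS with a mean of 247 ± 54.1.

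Most transcription, translation initiation and chaperone lists were near the share of all partnered genes (34.4%). Members lay at 12 of 31 partnered Mediator and TBP-associated factor genes (38.7%), 7 of 20 RNA polymerase subunit genes (35.0%), 7 of 21 translation initiation factor genes (33.3%) and 6 of 14 chaperone genes (42.9%). Taf5, a TFIID subunit gene paired with the peroxisome gene Pex6, had signals of 481, 525 and 349 (452 ± 91.7). MED30, a Mediator subunit gene paired with the translesion polymerase gene Rev1, had 369, 497 and 341 (402 ± 83.4). Polr2B, which encodes the second largest subunit of RNA polymerase II, had 449, 467 and 340 (419 ± 68.8) and Polr3E, a subunit gene of RNA polymerase III, 520, 362 and 301 (394 ± 113). Hsc70-5, the mitochondrial Hsp70 gene, had 408, 496 and 277 (394 ± 110).

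Genes of insulator and promoter factors were themselves at members in 5 of 12 cases, or 5 of the 8 with a partner, beside 12.5% of all genes and 34.4% of all partnered genes. A list this short allows no firm reading of its share. Besides Chro, Cp190, which encodes an insulator cofactor, had signals of 768, 839 and 677 (761 ± 81.2) at Cp190/CG4338, 3R:15275174-15275592. M1BP, which encodes the Motif 1 binding protein, had 420, 237 and 262 (306 ± 99.0) at M1BP/CG8202. Dref, which encodes the DRE binding factor, shared a peak with RpL13, with an IDR signal of 860 and starts 84 bp apart. Dref/RpL13 was 1 of 4 gene pairs with both genes on these 10 lists. The others were RpL28/eIF1 with 2 members (681 and 262), su(Hw)/Polr2I (210) and mRpL55/ATPsynD (176).

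Some gene families had no gene at a member, beside 12.5% of all genes at members and 25.1% at any IDR peak. None of 179 sensory receptor genes and none of 15 paired-like homeobox genes, PHDP among them, had a start within 500 bp of a member or of any IDR peak, and the same held for the 8 Hox genes. None of 70 cuticle protein genes was at a member, and 2 had an IDR peak of another class. The paired-like and Hox lists are too short for a count of 0 at members to stand apart from the 12.5% of all genes. Their counts at any IDR peak were not tested against 25.1%. Few of these genes are paired: 26 of the sensory receptor genes, 4 of the cuticle protein genes, 1 of the paired-like genes and none of the Hox genes had a head-to-head partner.

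Homeodomain palindromes were more frequent under members than under single-strand promoter peaks. Within 100 bp of the summit 218 members (24.4%, exact interval 21.6% to 27.4%) held TAATTA, against 16.1% of single-strand promoter peaks and 18.9% of peaks with no start within 500 bp. In the strongest 5000 peaks of replicates 1, 2 and 3 the members' share was 27.2%, 25.5% and 24.3% and the single-strand share 16.8%, 16.7% and 16.4%. The difference was 9.05 ± 1.30 percentage points (SD, n = 3; higher in 3 of 3 replicates, two-sided exact sign-flip p = 0.25, Benjamini-Hochberg adjusted p = 0.30 over 18 words, so it does not pass a threshold of 0.05, which 3 replicates cannot reach). Members were also more AT-rich, with a median GC content of 32.3% in the 201 bp window against 35.3%, and the part of this in the word difference was not tested. Of pair midpoints, 25.6% of those with an IDR summit within 250 bp held TAATTA and 20.3% of those without, with a median GC content of 31.3% and 34.3%. In windows around 1 start of every protein-coding gene the share was 9.95%, at a median GC content of 41.3%.

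The spaced palindromes were rarer. P3 was under 42 members (4.70%), against 2.60% of single-strand promoter peaks and 1.23% of windows around 1 start per gene, and P2 under 33 members (3.70%), against 2.75% and 1.03%. Pair midpoints with and without an IDR summit held P3 in 4.86% and 2.61% of cases and P2 in 2.98% and 2.95%. The replicate difference was 1.13 ± 0.449 points for P3 and 1.35 ± 0.256 points for P2, both higher in 3 of 3 replicates (exact sign-flip p = 0.25, adjusted p = 0.30). Taking 1 start per gene lowered the P3 difference to 0.493 points, and the 200 bp limit lowered that of P2 to 0.493. Members with P2 had a median IDR signal of 535 against 359 for those without, a replicate log2 difference of 0.50 ± 0.0702 (SD, n = 3). For TAATTA the difference in signal was smaller, at 0.23 ± 0.00479, and for P3 it was 0.21 ± 0.132. The strongest P3 members were those of eIF4EHP/CG18428, brm/Arl1 and Hrd3/PTPMT1. brm encodes the ATPase of the fly SWI/SNF chromatin remodelling complexes, and its peak at 3L:15982820-15983193 had signals of 746, 814 and 565 (708 ± 128). Hrd3 functions in degradation of endoplasmic reticulum proteins, and its peak had 821, 569 and 576 (655 ± 143).

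DRE and Motif 1 were also more frequent under members than under single-strand promoter peaks. DRE was under 95 members (10.6%, exact interval 8.69% to 12.8%) against 5.26% of single-strand promoter peaks, and the replicate difference was 5.65 ± 0.880 points. Motif 1 was under 60 members (6.72%, 5.17% to 8.56%) against 3.86%, with a difference of 2.64 ± 0.403 points. Both were higher in 3 of 3 replicates (exact sign-flip p = 0.25, adjusted p = 0.30). Peaks with no start within 500 bp held DRE and Motif 1 in 0.412% and 0.364% of cases. Windows around 1 start of every protein-coding gene held them in 7.84% and 6.76%. The members' share of Motif 1 was thus near that of gene starts in general. Midpoints of pairs with an IDR summit held DRE in 9.50% of cases and Motif 1 in 4.97%. Midpoints of pairs without one held them in 8.06% and 5.62%. These windows are centred on the midpoint, so whether they reach elements near a start depends on spacing. Spacing was not matched between both sets, so the shares cannot decide whether these elements separate them. The window around the summit sets the sizes of the differences from single-strand promoter peaks. Within 50 bp of the summit they were 1.73 and 0.693 points, and within 150 bp 11.2 and 8.51. With the 200 bp limit they were 3.19 and 0.0260, the last with replicates of both signs.

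Members with these promoter elements were weaker, not stronger. Median IDR signal was 324 with DRE and 381 without, a replicate log2 difference of -0.29 ± 0.115 (SD, n = 3; lower in 3 of 3, exact sign-flip p = 0.25). With Motif 1 it was 250 against 384, a difference of -0.52 ± 0.127. Lower signals were not particular to these elements. The difference was also negative for TCAGTT (-0.35 ± 0.0659), CAGCTG (-0.31 ± 0.0518) and the forkhead word (-0.31 ± 0.0666). Other words went with higher signals, TATAAA (0.15 ± 0.0960) and the homeodomain palindromes among them. DRE and Motif 1 occurred together under 6 members, and 744 of 893 (83.3%) held neither. The strongest DRE member was fws/Lamtor3, whose peak had signals of 937, 966 and 643 (848 ± 179). Among the other DRE members, CG32856/Rbf2 had signals of 335, 368 and 279 (327 ± 44.9). fws encodes a subunit of the Golgi COG complex and Lamtor3 a subunit of the Ragulator complex. The strongest with Motif 1 was Ripalpha/RpL7, followed by CG3698/tzn with 358, 325 and 263 (315 ± 47.9) and CG7130/RpLP0 with 311, 273 and 233 (272 ± 39.4). RpLP0 encodes a ribosomal stalk protein.

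Homeodomain palindromes lay nearer to the summit, and DRE and Motif 1 nearer to the start. Only words within 100 bp of the summit were searched, which limits the distances from it. The median summit of head-to-head members itself lay 90 bp upstream of the nearer start. In head-to-head members TAATTA was a median of 38.5 bp from the summit and 102.5 bp upstream of the nearer start, P2 26.5 and 103.5 bp, and P3 35 and 101 bp. DRE was 65.5 bp from the summit and 29.5 bp upstream of the nearer start, and Motif 1 62.5 and 10.5 bp. The place of the palindromes was shared by other words: TATAAA was 43.5 bp from the summit and 108.5 bp upstream, and the GATA word 42.5 and 103.5 bp. The forkhead word was 53 bp from the summit. DRE and TAATTA occurred together under 19 members, and 84 members held none of the 18 words.

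GAGA repeats and initiator words were scarcer under members. GAGAGAG was under 9 members (1.01%, exact interval 0.462% to 1.90%) against 6.41% of single-strand promoter peaks, a replicate difference of -5.04 ± 0.564 points (SD, n = 3; lower in 3 of 3, exact sign-flip p = 0.25, adjusted p = 0.30). The word was in 3.69% of windows around 1 start per gene. TCAGTT, part of the arthropod initiator, was under 80 members (8.96%) against 13.0%, a difference of -4.61 ± 0.823 points. The difference for GAGAGAG was -1.62 points within 50 bp and -9.42 within 150 bp of the summit, and that for TCAGTT -2.11 and -6.97. The TATA word TATAAA was under 416 members (46.6%) against 34.6%, and this AT-only word is read beside the lower GC content given above. The GATA word was under 103 members (11.5%) against 14.8%, and the members that held it had higher signals, by 0.33 ± 0.0573 on the log2 scale. The forkhead word, the E-box CACGTG, the AP-1 word TGANTCA and the early embryonic word CAGGTAG gave differences that changed sign between settings.

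The other words searched gave positive differences, except a CA repeat. ATCGAT, the core that every DRE holds, was under 203 members (22.7%), a replicate difference of 9.64 ± 1.57 points (SD, n = 3) from single-strand promoter peaks, and in 18.9% of windows around 1 start per gene. CATCNCT, part of the core promoter element Motif 7, was under 135 members (15.1%), a difference of 5.72 ± 1.73 points, and in 10.8% of those windows. The core of Motif 6, GTATNTTT, gave 119 members (13.3%), 1.72 ± 0.744 points and 9.75% of windows, and the E-box CAGCTG 107 members, 1.77 ± 0.964 points and 13.8% of windows. CACACACA was under 15 members (1.68%) against 3.81% of single-strand promoter peaks, a difference of -1.79 ± 0.396 points. Each had an exact sign-flip p of 0.25, and over the alternatives the difference ranged from 2.30 to 16.9 points for ATCGAT, 0.0703 to 12.3 for CATCNCT and 0.105 to 7.31 for CAGCTG. The same windows around 1 start per gene held DRE in 7.84%, Motif 1 in 6.76%, TATAAA in 29.2%, TCAGTT in 21.3% and the GATA word in 10.8% of cases.

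**Figure D5:**
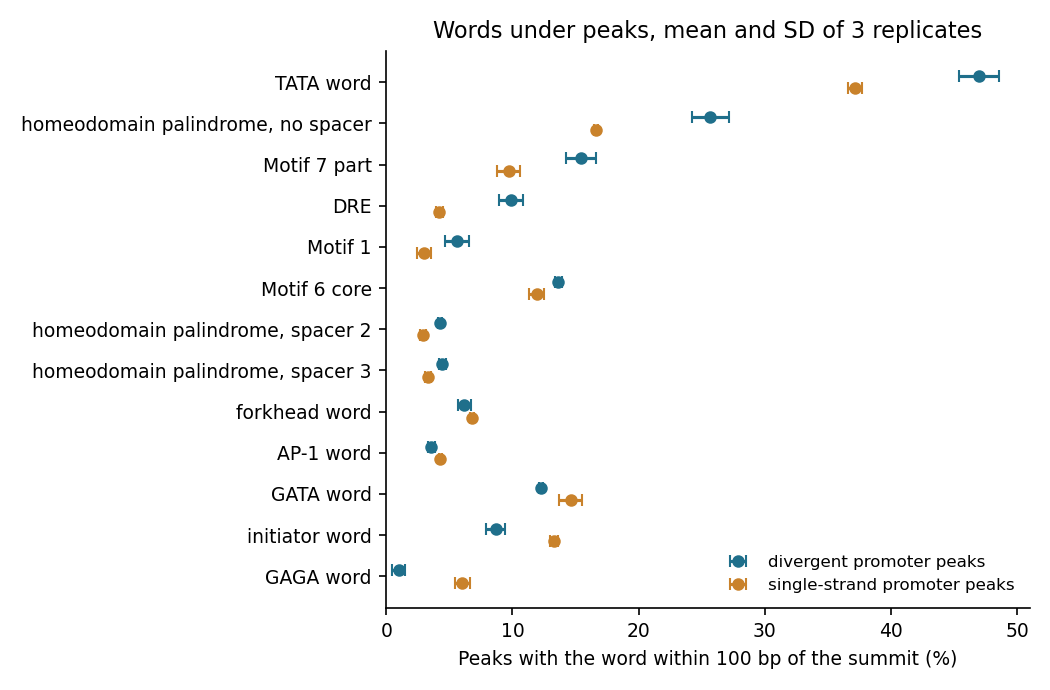
Share of peaks with each word within 100 bp of the summit (x axis, %) for divergent and single-strand promoter peaks, as mean and SD of 3 replicates (strongest 5000 peaks each), ordered by the difference. Homeodomain palindromes, DRE and Motif 1 lie to the right for divergent promoter peaks, and the GAGA and initiator words to the left.

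Most members were found in every replicate. A summit within 100 bp in all 3 replicate lists was present for 785 of 893 members (87.9%, exact interval 85.6% to 89.97%), against 90.5% of all IDR peaks, 87.4% of single-strand promoter peaks and 92.7% of peaks with no start within 500 bp. A further 98 members had a match in 2 replicates and 10 in 1. The 785 had a median IDR signal of 393 and the other 108 a median of 240. Within 50 bp 63.3% matched in all 3. Across the 785 members the Spearman correlation of signal between replicates was 0.859, 0.886 and 0.883 for the 3 pairs, in which each replicate enters 2 times. The median coefficient of variation over replicates was 22.4%, from 2.53% to 92.6%. The most variable was a weak peak of Klp67A/CG4452, with signals of 128, 35.5 and 22.6, highest in replicate 1. Klp67A encodes a mitotic kinesin. ND-51/CG13994 followed with 99.7, 48.6 and 15.2, again highest in replicate 1, and CG5885/CG4598 with 19.7, 158 and 91.8, lowest in replicate 1.

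Chromosome arms differed in how many of their peaks were members. The share was 13.1% on 2L (177 of 1352), 12.7% on 2R (161 of 1267), 12.7% on 3L (199 of 1562), 15.1% on 3R (246 of 1630), 9.68% on 4 (3 of 31) and 8.56% on X (107 of 1250). The X share was low although X had 18.4 head-to-head pairs per 100 genes, near the 18.9 to 19.96 of the large autosomal arms. Members on X had a median IDR signal of 319 against 373 elsewhere, a replicate log2 difference of -0.21 ± 0.172 (SD, n = 3), with -0.41, -0.10 and -0.12 in replicates 1, 2 and 3, so that replicate 1 gave most of it. Just inside the 500 bp limit were CG11409/Naa30A, whose farther start was 499 bp away, with an IDR signal of 197, and Mpc1/CG42613 and CG1648/CG34033 at 498 bp, with 313 and 266. Just outside were the peaks near Drsl6 and kst (501 bp, 264), wts and dj-1beta (502 bp, 231), and CG12929 and RpL31 (505 bp, 769).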

How the data were processed

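Peak lists were deposited by the authors on dm6: per the accompanying file notes, 1 list per replicate from that replicate's alignment and a shared control, and an IDR list from these and a pooled list. Which aligner and which caller were used is not given in the sources used here. Each peak's signal is the authors' deposited value, used only within its own list. Sequencing depth is unknown. The sonicated size range was 200 to 800, per the labels (unit not stated). Peaks on 6 arms were used, with 30000, 30000 and 29995 in replicates 1, 2 and 3. Mitochondrial peaks were left out.

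Starts of all protein-coding transcripts came from Ensembl release 115 (BDGP6.54, the dm6 assembly), and sequence from the RefSeq release 6 genome. Coordinates are 1-based. Signals in a replicate are those of the strongest peak with a summit within 100 bp. Replicate shares and words use the strongest 5000 peaks. Exact words of both strands were searched in 201 bp windows. Pairs are named minus-strand gene first. Tests are two-sided exact sign-flip permutations over 3 replicates, whose smallest p is 0.25. Printed sequences hold no annotated exon. Calculations were tested on simulated data, where 25 of 25 checks were recovered. Python 3.11.15, numpy 2.4.6, scipy 1.17.1 and matplotlib 3.10.9 were used.

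The members, lists, words and tests were chosen with earlier results of these data known. Named genes followed a rule: the 12 strongest and 3 weakest members, the shortest and longest spacings, the 3 strongest with each of DRE, Motif 1, TAATTA and P3, the 3 most variable, up to 3 genes per list, and the members next to the 500 bp limit. A few members that this rule names are not reported here. Members with overlapping starts, those with 2 peaks at a pair and those with both genes on the lists were named after their values were seen. The alternatives were other promoter limits, match and word windows, stronger peaks, 1 start per gene, other list depths, the mean and leaving out each replicate.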

Additional observations from a re-analysis of the deposited data

How the results depend on the processing

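The share of divergent promoter peaks was 6.68% with a limit of 200 bp, 16.6% with 1000 bp, 15.5% above the median IDR signal, 11.5% with 1 start per gene and 13.0% to 13.2% without each replicate in turn. In the same order the head-to-head share was 98.3%, 97.4%, 97.6%, 95.4% and 97.9% to 98.1%. The share with the summit between the starts was 77.0% with 200 bp, 76.1% with 1000 bp, 77.6% with 1 start per gene and 80.1% to 81.0% without each replicate, and median spacing was 226, 331, 278 and 278 to 287.5 bp. The share matched in all replicates was 91.1% with 200 bp, 94.3% above the median, 63.3% and 96.2% with a match within 50 and 200 bp, and 90.9% to 92.2% without each replicate, where only the remaining replicates had to match. The signal difference kept its sign in 9 of 10 alternatives, at 0.22 to 0.27 without each replicate, and turned to -0.0353 above the median, where peaks were chosen on the signal compared. Partnered genes kept the higher coverage in all 9 alternatives, from 13.2 to 24.97 points, and 20.8 to 21.1 without each replicate. Of 18 words, 14 kept the direction of their mean difference in all 9 alternatives, but for 7 of these (P2, P3, Motif 1, both Motif 6 and Motif 7 words, CAGCTG and the GATA word) the replicates differed in sign in at least 1. Examples are Motif 1 with 200 bp (0.0260 ± 0.686), P3 with 1 start per gene (0.493 ± 0.485), CATCNCT within 50 bp (0.0703 ± 0.192) and CAGCTG within 50 bp (0.105 ± 1.37). CACGTG reversed to -0.0174 (2500 peaks), -0.361 (1 start per gene), -0.277 (50 bp window) and -0.235 (without replicate 3, with 0.281 at the other end of the range over replicates left out), and CAGGTAG to -0.577 (200 bp), -0.0816 (1000 bp), -0.225 (1 start per gene), -0.157 (50 bp window) and -0.203 (without replicate 3, with 0.135 at the other end). The forkhead word reversed to 0.702 (2500 peaks) and 0.910 (150 bp window), and the AP-1 word to 0.416 (200 bp) and 0.295 (2500 peaks). The cause was not tested. No paired analysis was possible because the series has 1 group, so that no groups share replicate numbers, and differences between classes of peaks or genes were taken within each replicate. Depth is unknown, no test over 3 replicates can pass 0.05, and peaks given without PHDP cannot be told apart.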
